A study of Mus musculus with 16 samples.

Results

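Cd14, Ly96 and the Toll-like receptor genes Tlr2, Tlr4, Tlr7 and Tlr9 were followed in mouse lungs after exposure to second-hand smoke before birth. So were the adaptor gene Myd88, the signalling inhibitor gene Irak3 and the intracellular sensor gene Nod2. A probe set, the group of short probes that reports 1 transcript on an Affymetrix array, was taken as a member where the platform annotation gave exactly 1 of these 9 symbols or a synonym. This gave 14 of the 45037 probe sets tested, from 8 of the 18193 genes with a named probe set: 4 for Tlr4, 3 for Tlr7, 2 for Irak3 and 1 for each of the others. No probe set carried the symbol Nod2, which is not analysed here.

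Left lungs of 16 Balb/c mice were each hybridized to 1 Affymetrix mouse 430 2.0 array at 23 weeks of age. There were 4 groups of 4: air females, smoke (SHS) females, air males and SHS males, named for what they were exposed to in utero. SHS was sidestream smoke at 10 mg/m3 of particles, given to the pregnant mothers 5 h a day and 7 days a week, and air groups had filtered air. As adults all 16 mice received the model allergen ovalbumin (OVA), injected at 19 and again at 21 weeks and inhaled as an aerosol in weeks 22 and 23, so every value comes from an allergen-challenged lung. The sources used here do not tie mice to litters or mothers, and p-values measure the spread between these lungs. SHS was compared with air within each sex, and levels of females and males were not compared.

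Toll-like receptors recognise conserved parts of microbes and some products of damaged tissue. CD14 and MD-2 (the product of Ly96) hand bacterial lipopolysaccharide to TLR4 at the cell surface. TLR2 senses bacterial lipopeptides, while TLR7 and TLR9 read single-stranded RNA and unmethylated CpG DNA inside endosomes. These receptors signal through MyD88 to IRAK kinases and NF-kB, and IRAK-M, the product of Irak3, restrains that step. In the lung the system is known from macrophages, monocytes, neutrophils, dendritic cells, B cells and epithelium.

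Values are log2 intensities, on which a difference of 1 is a doubling. They can be compared between arrays for 1 probe set but not between probe sets. A probe set was called where limma's moderated test gave a Benjamini-Hochberg adjusted p under 0.05 over all 45037 probe sets. Errors of differences are standard errors (SE) of that model. In females 2.87% of all probe sets were called, 2.36% higher after SHS and 0.517% lower. In males 5.18% were called, 3.07% higher and 2.11% lower. Of the calls in females 82% were higher, and 70.6% with quantile normalization. The 9 measured markers of lung epithelium had mean log2 values of 12.9 to 13.2 on the 16 arrays. SHS female replicate 4 correlated at 0.992 on average with its own group and at 0.995 with the air females, so calls and counts in females are also given without it. Leaving it out raised the share of probe sets called in females to 8.0%, and 67.4% of those calls were higher. This array was picked for its likeness to the air females. Larger differences and more calls without it follow in part from that choice and are not independent evidence.

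Cd14 was called higher in both sexes, Ly96 and 1 of 4 Tlr4 probe sets in females and Myd88 in males. Tlr7 was called lower in males at 1 of its 3 probe sets. No member was called for a difference between the sexes, and the Ly96, Tlr4 and Myd88 calls depended on single arrays. In females 3 of 14 member probe sets were called higher and none lower, beside 2.36% and 0.517% of all probe sets. In males 2 were called higher and 1 lower, beside 3.07% and 2.11%. The median log2 difference over the 14 probe sets was 0.13 in females and 0.04 in males, against -0.01 and -0.00 over all probe sets. With SHS female replicate 4 left out, 5 member probe sets were called in females, all higher, beside 5.4% of all probe sets called higher. Every SHS array lay above every air array for 3 member probe sets in females, where this held for 5.61% of all probe sets, and for 3 in males, where it held for 7.87%. Every SHS array lay below every air array for 2 in males (7.51% of all probe sets) and for none in females (2.64%).

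**Figure D1:**
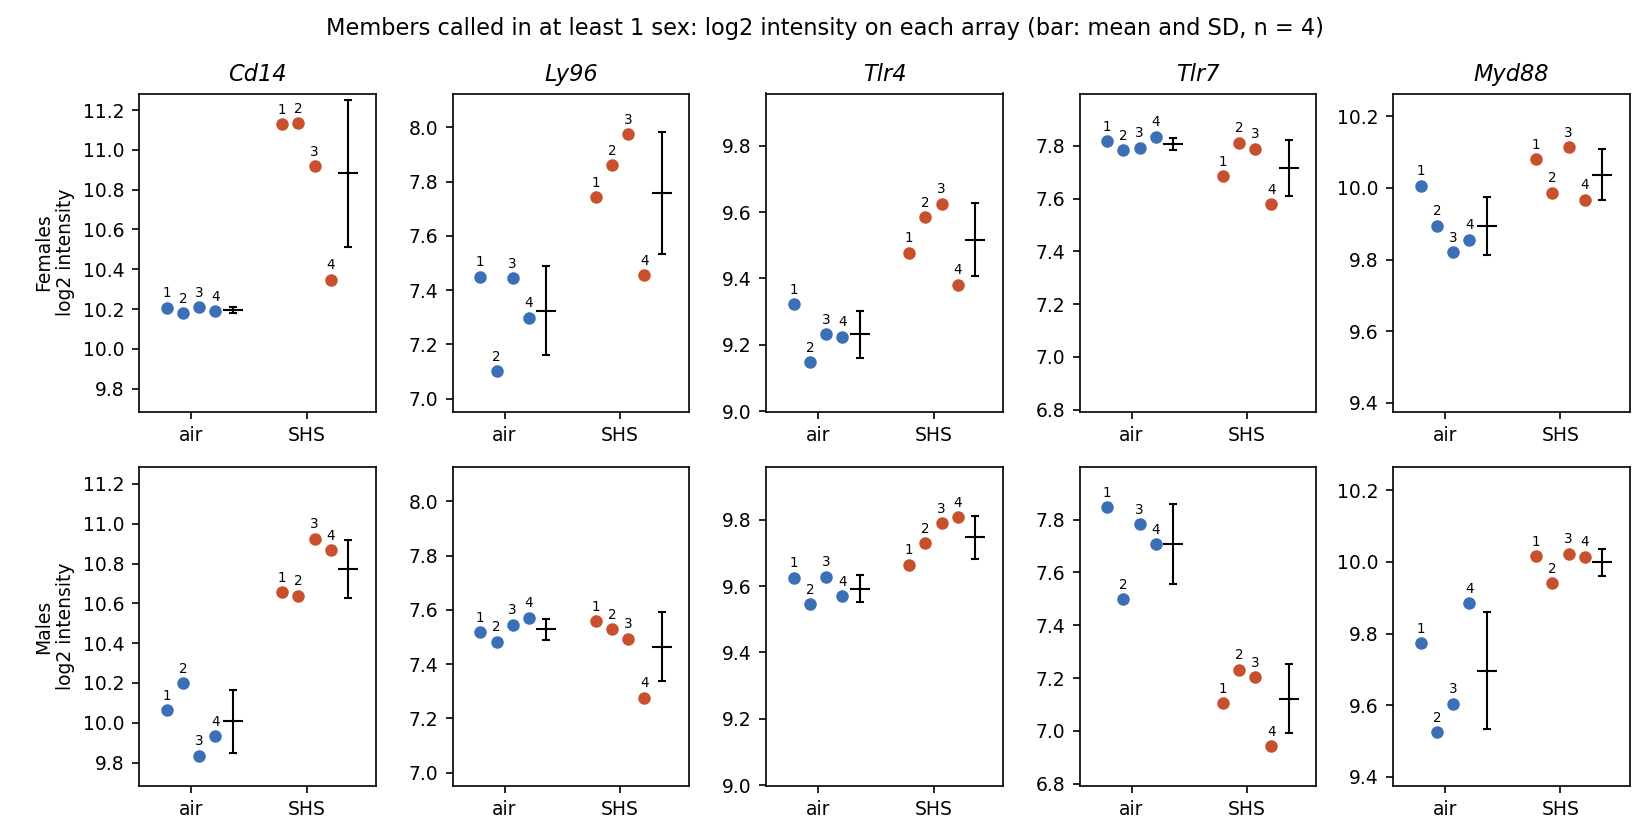
Log2 intensity of the 5 probe sets called in at least 1 sex on each array (points, numbered by replicate), with the mean and SD of the 4 arrays of a group at its right. In each column both panels share a scale. Cd14 was 10.2 on all 4 air female arrays and 10.3 to 11.1 on SHS female arrays, and Tlr7 was 7.50 to 7.85 on air male and 6.94 to 7.23 on SHS male arrays.

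Cd14 encodes the lipopolysaccharide co-receptor found on monocytes, macrophages and neutrophils, and in shed form in body fluids. It lies on chromosome 18 (36725064 to 36726815, GRCm38.p6) and was read by probe set 1417268_at. Its log2 intensity in air females was 10.21, 10.18, 10.21 and 10.19, a group SD of 0.01. In SHS females it was 11.13, 11.13, 10.92 and 10.35. All 4 SHS females lay above all 4 air females, with replicate 4 only just above them. The log2 difference was 0.69 ± 0.13 (SE, n = 4 and 4), a 1.61-fold higher intensity (adjusted p = 0.00917 in limma). Without SHS female replicate 4 the difference was 0.87 (adjusted p = 3.16e-05). Cd14 was called whichever of the 16 arrays was left out, with the highest adjusted p, 0.0423, without SHS female replicate 1. In a fit of the 8 female arrays alone it was not called (adjusted p = 0.0565).

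In air males Cd14 was at 10.06, 10.20, 9.83 and 9.93, and in SHS males at 10.66, 10.64, 10.92 and 10.87. The 2 male groups did not overlap either. The difference was 0.76 ± 0.13, or 1.70-fold (adjusted p = 0.00335 in limma), and Cd14 was called under all 24 alternatives tried. The SHS effect on Cd14 in females minus that in males was -0.08 ± 0.19 (adjusted p = 0.94), and its sign turned with array weights or without SHS female replicate 4. Cd14 was the member with the highest rise in each sex.

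Markers of cells that carry CD14 moved with it in part. The 10 measured markers of monocytes and interstitial macrophages had a mean of 10.11 to 10.21 in air females and 10.24 to 10.57 in SHS females, without overlap. In males the ranges were 9.86 to 10.16 with air and 10.03 to 10.32 with SHS, which overlap. Of these 10 genes 1 was called in each sex, the mannose receptor Mrc1, at 0.72 in females and 0.66 in males. The differences of 8 of the 10 were above 0 in females and of 7 in males. Cx3cr1 was below 0 in both sexes (-0.07 and -0.12). Fcgr1 was below 0 in females (-0.07), and Ccr2 and Ms4a7 in males (-0.11 each). The 10 neutrophil markers lay at 7.53 to 7.85 in air and 7.69 to 8.04 in SHS females, and at 7.57 to 7.69 in air and 7.84 to 7.91 in SHS males. None of them was called in females, and 1, the chemokine receptor Cxcr2 (0.59), in males. Differences were above 0 for 9 of the 10 in females and for 7 in males. Ltf was below 0 in females (-0.065), and Ngp (-0.04), Mpo (-0.02) and Elane (-0.10) in males. None of the 10 alveolar macrophage markers was called in either sex. Over all genes 3.29% were called higher in females and 4.17% in males, so single calls in lists of this size tell little. With SHS female replicate 4 left out, 6 of the monocyte and macrophage markers, 1 neutrophil and 1 alveolar macrophage marker were called higher in females, where 7.66% of all genes were. SHS female replicate 4 had the highest neutrophil mean of its group, 8.04, and the lowest mean of the monocyte and macrophage markers, 10.24. The 8 conventional dendritic cell markers lay at 8.37 to 8.53 in air and 8.50 to 8.79 in SHS females, and at 8.25 to 8.37 in air and 8.50 to 8.53 in SHS males. Of these Batf3 was called in both sexes (0.73 and 0.59) and Cd209a in males (0.46). Without SHS female replicate 4, 3 of the 8 were called higher in females, Batf3 (0.94), Itgax (0.90) and Ccr7 (0.42). Zbtb46 and Xcr1 were then below 0 (-0.07 each). With all arrays the differences of 6 of the 8 were above 0 in females and of 7 in males. Xcr1 (-0.14) and Flt3 (-0.025) were below 0 in females, and Flt3 (-0.03) in males. The male ranges of the neutrophil markers and of the dendritic cell markers did not overlap. The part of these markers in the results for Cd14, Ly96, Tlr4 and Myd88 was not tested. In whole lungs more cells of a type and more RNA per cell cannot be told apart, and this holds for every member.

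Ly96 encodes MD-2, the protein bound to TLR4 that forms the pocket for lipopolysaccharide. It lies on chromosome 1 (16688456 to 16709605) and had 1 probe set, 1449874_at. Its values were 7.45, 7.10, 7.45 and 7.30 in air females and 7.74, 7.86, 7.97 and 7.46 in SHS females. Replicates 1 to 3 of the SHS females were clearly above the air group, and replicate 4 was level with the highest air array, replicate 1. The difference was 0.43 ± 0.10, or 1.35-fold (adjusted p = 0.0283 in limma).

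The Ly96 call in females depended on single arrays. It was lost without air female replicates 2 (adjusted p = 0.106) or 4 (0.0767) and without SHS female replicates 1 (0.0733), 2 (0.0913) or 3 (0.103). It was also lost in a fit of the 8 female arrays alone (0.122). Without SHS female replicate 4 the difference was 0.54 (adjusted p = 0.00176). In males the values were 7.52, 7.48, 7.55 and 7.57 with air and 7.56, 7.53, 7.49 and 7.28 with SHS, overlapping groups with a difference of -0.06 ± 0.10 (adjusted p = 0.785). The effects in the 2 sexes differed by 0.50 ± 0.15 (adjusted p = 0.434), which did not pass the test.

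Tlr4, the lipopolysaccharide receptor itself (chromosome 4, 66827551 to 66846581), was read by 4 probe sets. The probe set taken to represent the gene, 1418162_at, gave 9.32, 9.15, 9.23 and 9.22 in air females and 9.48, 9.58, 9.63 and 9.38 in SHS females. All SHS females were above all air females, and replicate 4 was again the lowest of its group. The difference was 0.29 ± 0.07, or 1.22-fold (adjusted p = 0.0266 in limma). The call was lost without air female replicates 2 (adjusted p = 0.0965), 3 (0.0689) or 4 (0.0706) and without SHS female replicates 1 (0.0603), 2 (0.084) or 3 (0.0961). It was also lost in a fit of the 8 female arrays alone (0.127). Without SHS female replicate 4 the difference was 0.33 (adjusted p = 0.00561).

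The other 3 Tlr4 probe sets were also higher in SHS females on average, by 0.28 ± 0.10 at 1418163_at (adjusted p = 0.124), 0.21 ± 0.08 at 1442827_at (0.162) and 0.27 ± 0.13 at 1430695_at (0.298), and none of them was called. The last lay at 3.94 to 4.84 in females, at the 10.6th percentile of mean value over all probe sets. Without SHS female replicate 4 the first 2 of these were called as well, at 0.38 (adjusted p = 0.0102) and 0.28 (0.0184). In males the 4 probe sets differed by 0.16, 0.06, 0.02 and 0.18 in the same order of probe sets, none of them called (adjusted p = 0.201, 0.796, 0.926 and 0.449). For 1418162_at the male groups did not overlap, at 9.55 to 9.63 with air and 9.66 to 9.81 with SHS. Its effect in females minus that in males was 0.13 ± 0.09 (adjusted p = 0.755).

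**Figure D2:**
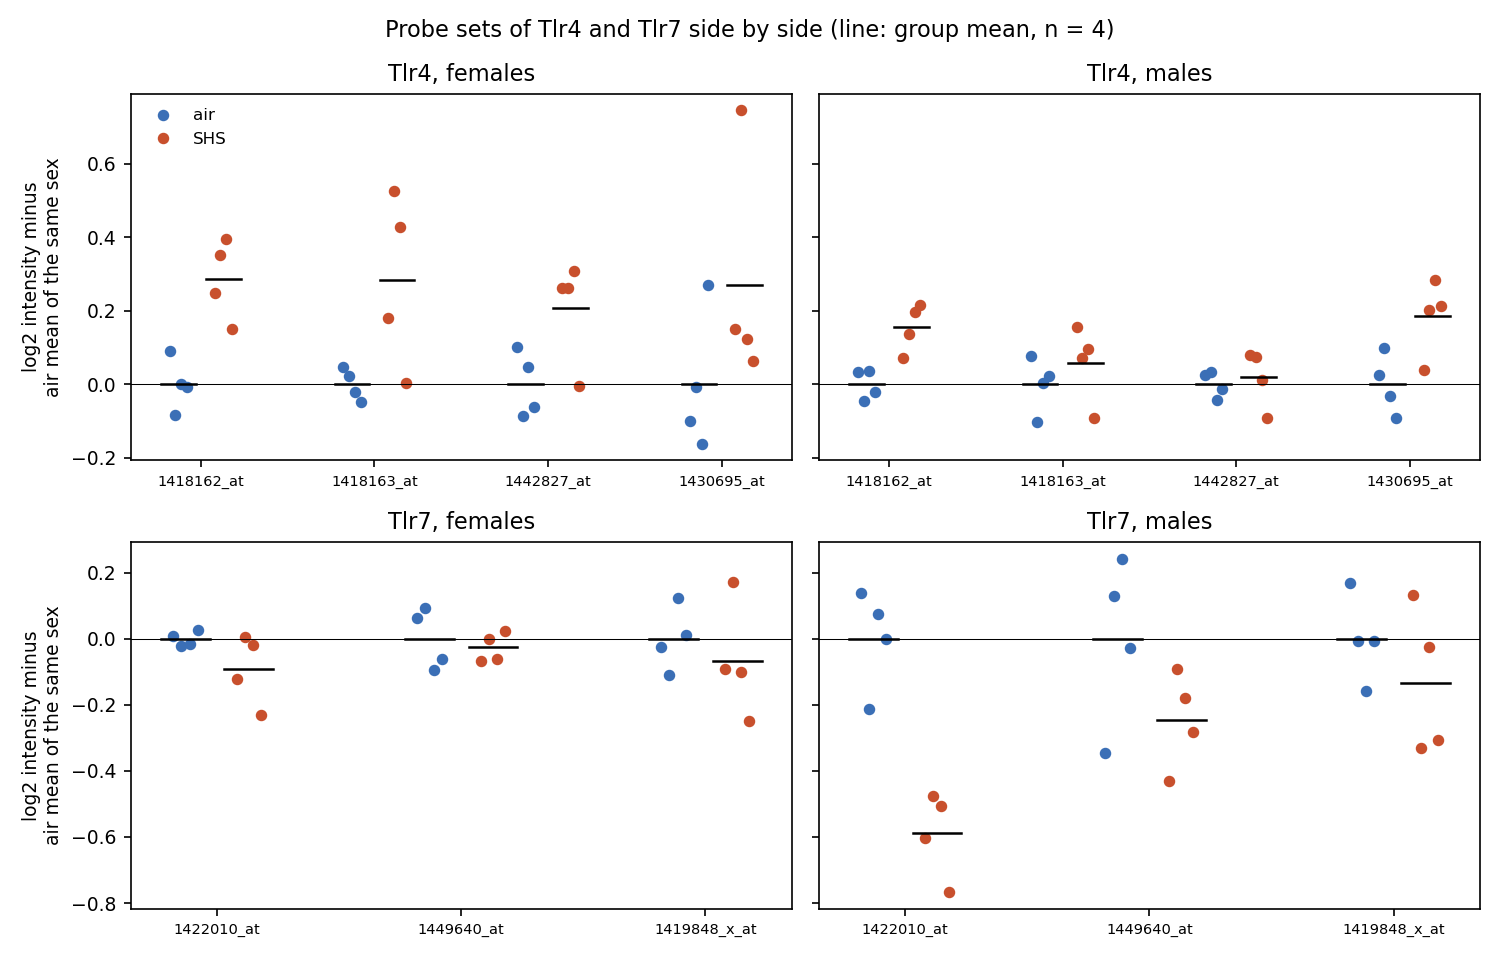
Log2 intensity minus the air mean of the same sex for the 4 probe sets of Tlr4 (top) and the 3 of Tlr7 (bottom), in females (left) and males (right). Points are arrays and lines are means of 4. All 4 Tlr4 means were above 0 in SHS females (0.21 to 0.29), and all 3 Tlr7 means were below 0 in SHS males (-0.59 to -0.13).

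Tlr2, whose product pairs with TLR1 or TLR6 to bind lipopeptides (chromosome 3, 83836272 to 83841824), was not called in either sex. Probe set 1419132_at gave 9.04, 9.16, 8.98 and 9.16 in air females and 9.09, 9.21, 8.98 and 9.22 in SHS females. The groups lay on top of each other, with a difference of 0.04 ± 0.07 (adjusted p = 0.853 in limma), and 0.01 without SHS replicate 4 (0.976). In males it gave 8.91, 8.87, 8.96 and 8.80 with air and 8.64, 8.63, 8.68 and 8.78 with SHS. All 4 SHS males were thus below all 4 air males, by 0.20 ± 0.07 on average, but the difference was not called (adjusted p = 0.111). With array weights it was (-0.22, adjusted p = 0.0373). Its partner genes had log2 differences of 0.42 (Tlr1, adjusted p = 0.0995) and 0.18 (Tlr6, 0.386) in females and 0.03 (0.938) and 0.02 (0.927) in males.

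Tlr7, an endosomal RNA sensor on the X chromosome (167303380 to 167330574), gave the lowest adjusted p of any member, in males. Probe set 1422010_at, designed on an mRNA record, gave 7.85, 7.50, 7.78 and 7.71 in air males and 7.10, 7.23, 7.20 and 6.94 in SHS males. The highest SHS male, replicate 2, lay well below the lowest air male, also replicate 2. Tlr7 fell by 0.59 ± 0.08 on the log2 scale, an intensity 1.50-fold lower (adjusted p = 0.000729 in limma), and was called under all 24 alternatives. Both other Tlr7 probe sets derive from the same expressed sequence tag record and lay at the 27.1th and 21.1th percentiles of mean value. They gave -0.25 ± 0.10 (1449640_at, adjusted p = 0.192) and -0.13 ± 0.11 (1419848_x_at, adjusted p = 0.542) in males, and their groups overlapped. The first was called without air male replicate 1, the array on which it was lowest among air males (-0.36, adjusted p = 0.038).

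In females 1422010_at was at 7.82, 7.78, 7.79 and 7.83 with air and 7.69, 7.81, 7.79 and 7.58 with SHS. SHS replicates 1 and 4 lay below the air group and replicates 2 and 3 within it. The difference was -0.09 ± 0.08 (adjusted p = 0.662), and -0.04 without replicate 4 (0.839). The effects in females and males differed by 0.50 ± 0.12, with an unadjusted p of 0.000567 but an adjusted p of 0.383, so a difference between the sexes was not called. Of the 14 member probe sets none was called for such a difference, and 3 had an unadjusted p under 0.05 (Ly96, Tlr2 and Tlr7). Over all 45037 probe sets 0 (0%) were called in limma, as among the members. An unadjusted p under 0.05 was found for 3709 of the 45037, beside 3 of the 14 members.

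Tlr9, the CpG DNA sensor (chromosome 9, 106222598 to 106226876), was not called. Probe set 1422083_at gave 6.54, 6.83, 6.68 and 6.69 in air females and 6.59, 6.98, 6.60 and 6.74 in SHS females, a difference of 0.04 ± 0.13 (adjusted p = 0.918 in limma, and the same without SHS replicate 4). In males the values were 6.18, 5.94, 5.97 and 6.49 with air and 6.29, 6.24, 6.66 and 6.22 with SHS. The difference was 0.21 ± 0.13 (adjusted p = 0.375), opposite in sign to that of Tlr7 on the same arrays.

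Among other nucleic acid sensors of endosomes, Tlr13, which reads bacterial ribosomal RNA in mice, fell in males (-0.44 ± 0.11, adjusted p = 0.0261 in limma), with all SHS males below all air males. Tlr8 and Tlr3 had differences of -0.30 (adjusted p = 0.24) and -0.22 (0.079) there. For these 2 genes too all SHS males lay below all air males, but neither was called. Such a separation held for 7.51% of all probe sets in males. In females Tlr13, Tlr8 and Tlr3 were at 0.12, 0.26 and -0.07 (adjusted p = 0.659, 0.394 and 0.671). Unc93b1, the chaperone that carries these receptors to endosomes, was at 0.01 in females and 0.03 in males (adjusted p = 0.98 and 0.933).

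TLR7 is known from plasmacytoid dendritic cells, B cells and macrophages. None of the 7 plasmacytoid dendritic cell markers was called in either sex, with mean values of 7.82 to 8.06 in air males and 7.82 to 8.10 in SHS males. The 7 B cell markers had means of 8.29 to 8.69 in air males and 8.33 to 8.90 in SHS males, and 1 was called, Fcer2a, which was higher (0.89). Over all genes 4.17% were called higher in males. The alveolar macrophage means were 8.75 to 8.86 in air males and 8.74 to 8.88 in SHS males. All 3 of these ranges overlapped between air and SHS males. The monocyte and interstitial macrophage means, 9.86 to 10.16 with air and 10.03 to 10.32 with SHS, overlapped too. Single markers went both ways in males. Of the alveolar macrophage markers 6 of 10 were above 0, while Siglecf was at -0.54 (adjusted p = 0.216 in limma) and Atp6v0d2 at -0.42 (0.118). For Atp6v0d2 all SHS males lay below all air males, which held for 7.51% of all probe sets. Of the B cell markers 4 of 7 were above 0, and Cd22 was at -0.33 (0.158). The part of these cells in the Tlr7 result was not tested.

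Myd88 encodes the adaptor used by all of these receptors except TLR3 (chromosome 9, 119335934 to 119340018). Probe set 1419272_at gave 9.77, 9.53, 9.60 and 9.88 in air males and 10.02, 9.94, 10.02 and 10.01 in SHS males. The SHS males lay close together, all above the air males, which were spread more widely. The difference was 0.30 ± 0.08, or 1.23-fold (adjusted p = 0.03 in limma). The call was lost without air male replicates 2 (adjusted p = 0.0838) or 3 (0.0939) and without SHS male replicates 1 (0.0783), 2 (0.0513), 3 (0.085) or 4 (0.0566). It was also lost in a fit of the 8 male arrays alone (0.0595).

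In females Myd88 was at 10.01, 9.89, 9.82 and 9.86 with air and 10.08, 9.99, 10.11 and 9.97 with SHS. All 4 SHS females were above the air mean, but replicates 2 and 4 lay below the highest air array. The difference of 0.14 ± 0.08 was not called (adjusted p = 0.387), nor was that of 0.17 without SHS replicate 4 (0.269). The effects in the 2 sexes differed by -0.16 ± 0.11 (adjusted p = 0.735).

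The sequence before the Myd88 start site is shown because Myd88 is the only called member with an entry in the promoter table used. RefSeq windows were found for 5 of the 9 genes (Tlr2, Tlr9, Myd88, Irak3 and Nod2). The 250 bases before the start site lie on the minus strand at chr9:119340019-119340268 of GRCm38.p6, and capitals mark a match to an interferon-stimulated response element core.
Myd88: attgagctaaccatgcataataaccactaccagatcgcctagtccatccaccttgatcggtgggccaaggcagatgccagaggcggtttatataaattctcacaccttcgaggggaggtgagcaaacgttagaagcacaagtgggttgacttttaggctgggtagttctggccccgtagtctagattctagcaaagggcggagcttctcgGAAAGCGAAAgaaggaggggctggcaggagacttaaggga
The match starts 40 bases before the start site and follows the pattern GAAA, any 2 bases, GAAA, searched on both strands, which 2.98% of 32851 windows of this length hold. No match was found in this window to the patterns searched for NF-kB (GGGANTTCC, and a longer form with 1 more N in the middle), AP-1 (TGANTCA), C/EBP (TTNNGCAA) or PU.1 (GAGGAA). These letters are held by 1.43%, 1.21%, 6.75%, 9.56% and 23.3% of the windows. The window of Tlr2, which was not called, holds the shorter NF-kB pattern, and that of Tlr9 an AP-1 and a PU.1 match. A match describes the letters and is not a binding site.

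Irak3 encodes IRAK-M, an inhibitory member of the IRAK family of myeloid cells (chromosome 10, 120141648 to 120202130). Neither of its probe sets was called. At 1435040_at the values were 7.78, 7.93, 7.70 and 7.69 in air females and 7.98, 7.66, 8.06 and 7.86 in SHS females (0.12 ± 0.10, adjusted p = 0.646 in limma). In males they were 7.75, 7.39, 7.40 and 7.30 with air and 7.65, 7.41, 7.55 and 7.44 with SHS (0.05 ± 0.10, adjusted p = 0.831). The other probe set, 1430704_at, differed by 0.11 ± 0.12 in females (adjusted p = 0.714) and -0.04 ± 0.12 in males (0.888). Both probe sets stayed uncalled in females without SHS replicate 4 (0.13 and 0.11, adjusted p = 0.597 and 0.703). The groups overlapped at both probe sets in both sexes.

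**Figure D3:**
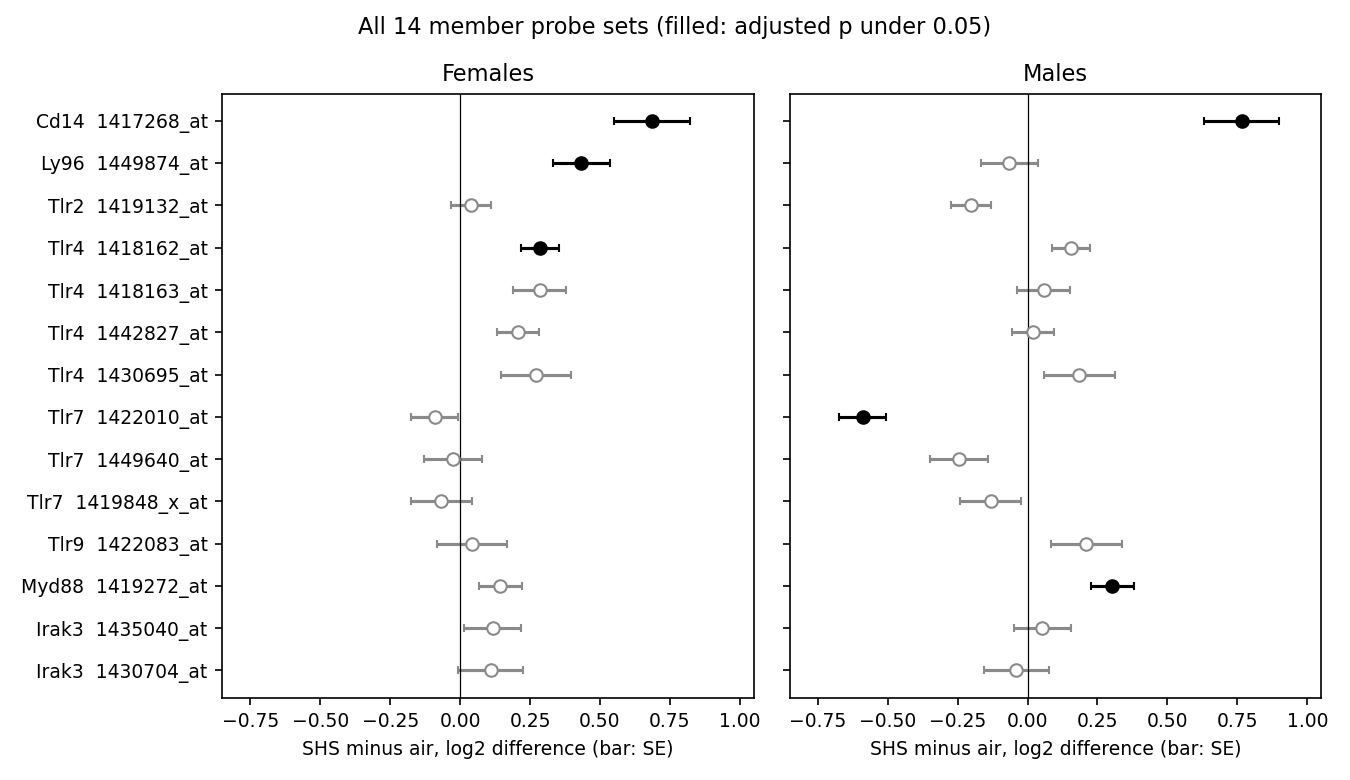
Log2 difference, SHS minus air, for all 14 member probe sets in females (left) and males (right). Bars are SE of the model, and filled points passed an adjusted p under 0.05. Cd14 is filled on both sides (0.69 and 0.76), Ly96 and 1 of 4 Tlr4 probe sets only on the left, and Myd88 and 1 of 3 Tlr7 probe sets only on the right. For none of them was the difference between the sexes called.

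Other genes of the pathway were read from 4 lists with 85 measured genes of 96, 1 probe set per gene. All 4 lists were chosen with results of these data known, so their counts are not independent evidence. Over all 18193 genes 3.29% were called higher and 0.676% lower in females, and 4.17% higher and 2.47% lower in males. Without SHS female replicate 4, a setting added after seeing the data for these lists, 7.66% were called higher and 3.45% lower in females. Of 22 other sensors, co-receptors and receptor chaperones, 2 rose in females and none fell. They were Clec4e, the Mincle receptor for mycobacterial glycolipid and dying cells (0.58 ± 0.15, adjusted p = 0.041 in limma), and Hsp90b1, the endoplasmic reticulum chaperone of Toll-like receptors (0.35 ± 0.07, adjusted p = 0.0065). With SHS female replicate 4 left out, 3 of the 22 were called higher in females, Hsp90b1, the MD-1 gene Ly86 (0.65) and the beta-glucan receptor Clec7a (0.52), and Clec4e was not (adjusted p = 0.059). In males none of the 22 rose and Tlr13 fell. Lbp, the serum protein that loads lipopolysaccharide onto CD14, was at -0.10 in females and 0.24 in males (adjusted p = 0.627 and 0.1). The list medians were 0.08 and 0.03, with 0.00 and 0.01 over all genes.

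Of 23 adaptors, kinases and NF-kB subunits, 1 rose in females (against 3.29% of all genes) and 2 in males (4.17%), and none fell. Nfkb2, the precursor of the p52 subunit, rose by 0.34 ± 0.09 in females (adjusted p = 0.0377 in limma) and 0.36 ± 0.09 in males (0.0184). Its partner Relb rose by 0.50 ± 0.09 in males (0.00336) and had a difference of 0.22 in females (0.208). The core kinases and ligases of the MyD88 route, Irak1, Irak2, Traf6 and Map3k7, had differences of -0.04 to 0.17 in females and 0.03 to 0.18 in males, none of them called. In females 6 were called higher without SHS female replicate 4, Nfkb2, Relb, Rel, Ikbke, Irf5 and Ticam1, at 0.26 to 0.52. The list medians were 0.07 and 0.06.

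Of 18 genes that damp Toll-like receptor and NF-kB signalling, 4 rose in females (against 3.29% of all genes) and 5 in males (4.17%). None fell. The cytokine signalling inhibitors Socs1 and Socs3 rose by 0.61 and 0.46 in females (adjusted p = 0.0156 and 0.0219 in limma) and by 0.68 and 0.76 in males (0.00558 and 0.000623). Bcl3, a nuclear IkB protein, rose by 0.43 (0.048) and 0.60 (0.00468), and Zc3h12a, a ribonuclease that cuts cytokine mRNAs, by 0.37 (0.041) and 0.42 (0.0152). Acod1, which makes itaconate in activated macrophages, rose in males by 0.79 (0.0333) and was at 0.54 in females (0.183). In females 10 were called higher without SHS female replicate 4, among them Socs1, Socs3, Bcl3 and Zc3h12a and also Tnfaip3 (0.47, adjusted p = 0.0026). With all arrays the feedback genes Tnfaip3 and Nfkbia were not called, at 0.36 and 0.06 in females and 0.18 and -0.02 in males. The list medians were 0.28 in females and 0.10 in males.

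Of 22 genes commonly induced through Toll-like receptors, 7 rose in females (against 3.29% of all genes) and 11 in males (4.17%). None fell. This list too was chosen with results of these data known, so its count is not independent evidence. Il6 rose by 1.15 ± 0.26 in females (adjusted p = 0.0212 in limma) and 1.68 ± 0.26 in males (0.00137), and Il1b by 0.71 ± 0.14 (0.0082) and 0.71 ± 0.14 (0.00554). Cxcl1, a neutrophil chemokine, rose by 1.10 (0.0451) and 1.47 (0.00615), and Il10, an anti-inflammatory cytokine, by 0.71 (0.00604) and 0.67 (0.00674). In females 11 of the 22 were called higher without SHS female replicate 4, 6 of the 7 among them, and Cxcl1 was not (adjusted p = 0.0619). With all arrays Saa3 and Cxcl2 had the highest rises on the list, 1.89 and 1.67 in females and 2.38 and 1.77 in males. Other classical targets did not pass the test, among them Tnf (0.11 and 0.32, adjusted p = 0.646 and 0.0812), Il12b (-0.01 and 0.07, 0.966 and 0.738), Nos2 (0.24 and -0.14, 0.506 and 0.693) and Ifnb1 (-0.08 and -0.05, 0.807 and 0.88). The list medians were 0.33 and 0.35.

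**Figure D4:**
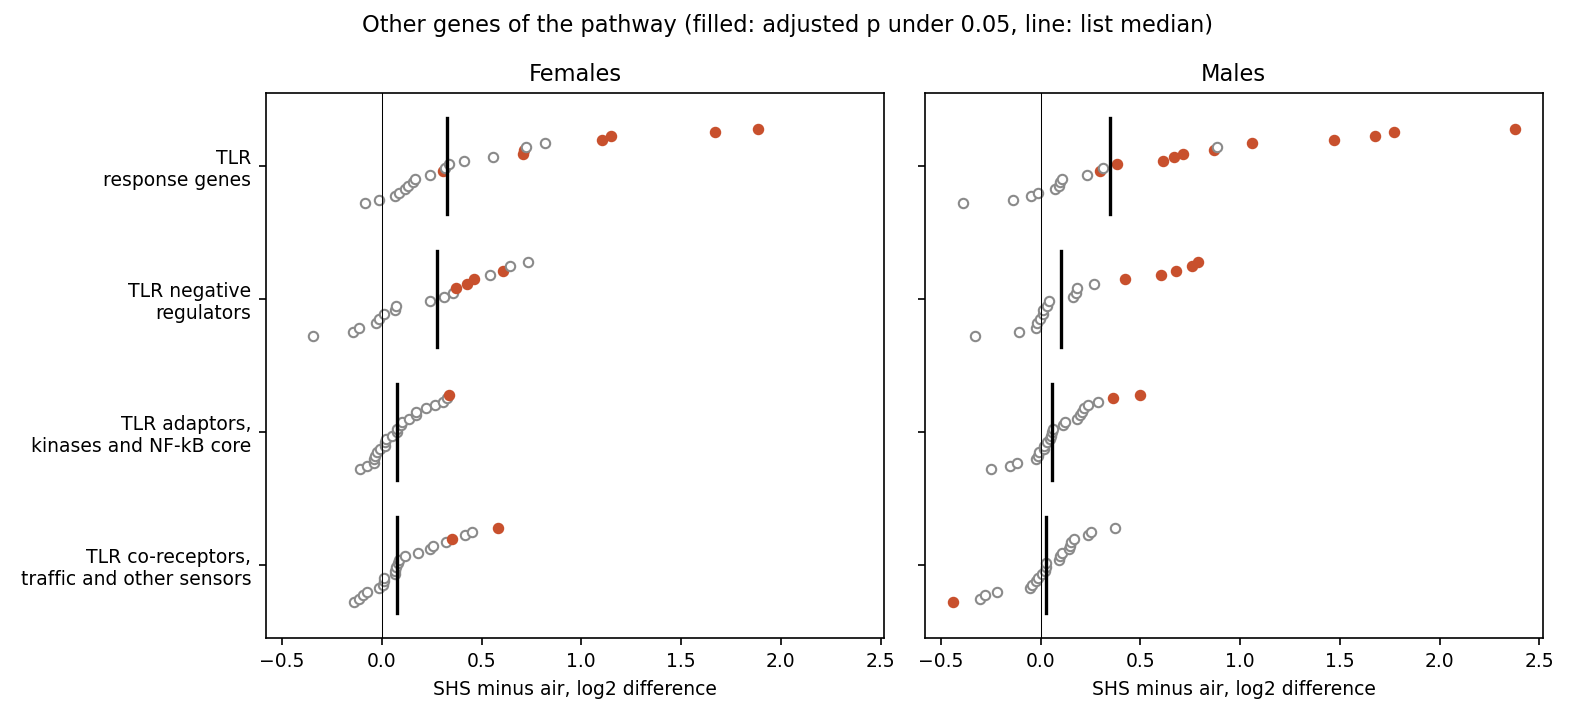
Log2 difference, SHS minus air, of each measured gene on the 4 pathway lists in females (left) and males (right), on a common scale, spread vertically for reading. Filled points passed an adjusted p under 0.05, and bars are list medians. Response genes reached 1.89 in females and 2.38 in males, while no adaptor or kinase gene went beyond 0.50.

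Genes whose pattern was most like that of Cd14 were sought by expressing each array as its difference from the air mean of its sex. The root mean square difference from Cd14 over the 16 arrays was then taken for 18185 other genes, with a median of 0.56. All members were left out of this search. The nearest were Ppa1, an inorganic pyrophosphatase (0.12), Pf4, the platelet factor chemokine (0.14), Gins1, a DNA replication factor (0.14), Plk1, a mitotic kinase (0.14), and Gclc, which makes the precursor of glutathione (0.14). In SHS female replicate 4 Gclc lay 0.15 below the air mean, while the other 4 lay 0.25 to 0.50 above it. Their SHS effects were 0.57 to 0.79 in females and 0.67 to 0.77 in males, and each was called except Gclc in females (adjusted p = 0.0693 in limma). Members could not be among these 5, which were picked for closeness to Cd14, so effects of similar size follow from the choice. Likeness here is a description of the same 16 arrays.

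**Figure D5:**
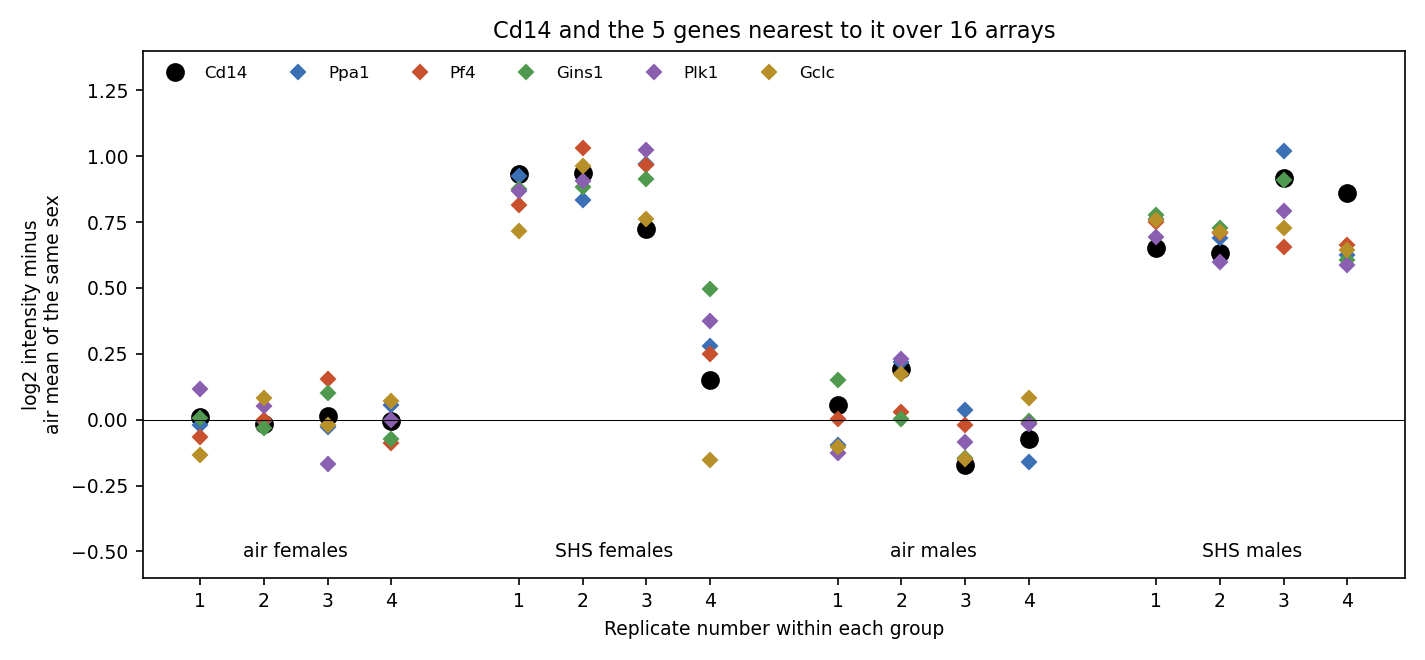
Log2 intensity minus the air mean of the same sex for Cd14 (black circles) and the 5 nearest genes (diamonds) on each of the 16 arrays, by group and replicate number. Cd14 lay 0.63 to 0.94 above the air mean on every SHS array except SHS female replicate 4, where it lay 0.15 above.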

How the data were processed

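RNA from 16 left lungs (Trizol) was hybridized as biotinylated cRNA, 1 lung per array, per the labels. The authors deposited 1 log2 value per probe set and array, already normalized between arrays. The summarisation and normalization are not given in the sources used. Limma is named, without a role, in the submitters' processing notes. Values ran from 2.58 to 15.2 and were used as deposited. The table has 45101 features, and its 64 controls were not tested. Entrez identifiers were matched to RefSeq genes of GRCm38.p6.

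Means of the 4 groups were fitted for 45037 probe sets in 1 model with limma 3.58.1 in R 4.3.3 (12 residual and 5.56 prior degrees of freedom). For each gene the probe set of highest mean value was used in gene counts. All member probe sets were named, and up to 4 called genes with the largest difference from each pathway list. Other genes given with values were chosen after those were seen. The members and lists were chosen with earlier results of these data known. The 11 marker lists had 86 of 98 genes measured. Alternatives were other normalizations, filters, weights, priors, thresholds and subsets of arrays. The 4 arrays per group limit the precision.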

Additional observations from a re-analysis of the deposited data

Results flagged for a closer look

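In 4 of the 56 groups of 4 arrays formed by the 14 member probe sets, 1 array stood apart from the other 3 by Dixon's criterion, which chance meets in about 1 group in 20. Tlr4 probe set 1442827_at was at 7.55 on SHS female replicate 4, against 7.81 to 7.86 on the other 3. Tlr4 probe set 1430695_at was at 4.84 on SHS female replicate 2, against 4.16 to 4.25. Tlr9 was at 6.66 on SHS male replicate 3, against 6.22 to 6.29. Myd88 was at 9.94 on SHS male replicate 2, against 10.015 to 10.023.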

How the results depend on the processing

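The number of member probe sets called was 3 in females, 3 in males and 0 for the difference between the sexes. With quantile normalization, median centring, the filter on dim probe sets, the trended robust prior and an adjusted p under 0.10, these counts stayed the same, and so did the genes. The share of all probe sets called moved, to 5.18% in females and 9.04% in males at 0.10. With the filter, which kept 10 member probe sets, it was 6.67% and 10.4% of those kept. It was 2.71% and 5.57% with quantile normalization, 2.79% and 5.17% with centring and 3.74% and 6.23% with the trended prior. Array weights gave 5 in females and 4 in males, with 8.85% and 9.77% of all probe sets called (2.87% and 5.18% as reported). The 8 female arrays alone gave 0 (5 at an unadjusted p under 0.05), with 0.995% called, and the 8 male arrays alone 2, with 6.13%. With 1 array left out in turn the count ran from 1 to 5 in females, 2 to 4 in males and 0 to 0 for the difference. In females it was 1 without air replicates 2 or 4 or SHS replicates 1, 2 or 3, where 657 to 797 of all probe sets were called in place of 1294, and 5 without SHS replicate 4, where 3604 were. Replicate numbers are shared between groups without a stated pairing, and deviations of same-numbered arrays correlated at -0.08 to 0.27. With the replicate number as a block the counts were 3, 3 and 0, with 3.41%, 5.42% and 0% of all probe sets called.

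Signs turned only for differences that were not called. With array weights Tlr2 in females was at -0.001, Tlr9 in females at -0.05 and the difference between the sexes of Cd14 at 0.085. With single arrays left out, values ran across 0 in females for Tlr7 1449640_at (-0.058 to 0.006) and Tlr9 (-0.044 to 0.092). In males they did for Tlr4 1442827_at (-0.002 to 0.055) and for Irak3 1435040_at (-0.001 to 0.15) and 1430704_at (-0.13 to 0.047), and for Cd14 in the difference between the sexes (-0.161 to 0.1). Dim probe sets of Tlr4, Tlr7 and Irak3 limit what can be read from them. The causes of these changes were not tested.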
